A study of Mus musculus with 64 samples.

Results

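Transposon insertions within Ptprc, the gene of the leukocyte surface phosphatase CD45, were examined in lymphomas and tails of mice with a mobile transposon. All deposited lines between the start and the end of the gene (mm10, chromosome 1, 138062859 to 138175305, minus strand) were taken, which were 261 of 385883 lines. Of these, 195 came from PB tumours, 1 from PB tails, 61 from SB tumours and 4 from SB tails. The gene was selected on its high number of tumour insertions, so these numbers are a description and were not tested.

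Diffuse large B cell lymphomas were collected from 30 PB ITP mice and 11 SB ITP mice, with tail tissue of 12 further PB mice and 11 further SB mice as the control. PB mice carry a PiggyBac transposase and SB mice a Sleeping Beauty transposase, each knocked into the Rosa26 locus and active constitutively. In both, the transposase mobilises copies from an array of ITP transposons, in tumours and tails alike. PiggyBac inserts at TTAA and Sleeping Beauty at TA.

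Per the methods, the SB mice were bred from parents with 1 Rosa26 SB allele that were homozygous for the m3 allele of Blm, a helicase gene of recombination repair, and from ITP1-C or ITP2-M parents that were also Blm m3/m3. For the PB mice, which were described in an earlier study, the Blm genotype and the ITP line are not given in the sources used here. The background was a mixture of C57BL/6, 129Sv and FVB, and ages are not given in the sources used here. PB and SB therefore differ in the transposase and may differ in Blm and in the donor line, and these cannot be told apart. The measurements are of genomic DNA and hold no expression, so the tissue labels could not be checked against marker genes.

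CD45 is a receptor-type tyrosine phosphatase that is abundant on all nucleated blood cells. Its intracellular part removes phosphates from Src-family kinases such as Lyn and Lck, including the inhibitory phosphate that the kinase Csk places, and thereby sets the threshold of antigen receptor signalling in B and T cells. It also acts on Janus kinases. Its extracellular part varies through alternative splicing of a group of exons near the start of the gene. A transposon in an intron can disturb the transcript of a gene or drive one of its own, and what an insertion did to Ptprc was not measured here.

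The gene spans 112 kb and has 830 TTAA and 8315 TA motifs. The longest of 3 curated RefSeq transcripts has 32 exons and the shortest 29, which starts from another first exon and leaves out exons 3 to 6. Exons and introns are numbered by the longest. Intron 1 alone is 48.7 kb long and holds 41.0% of the TTAA and 42.2% of the TA motifs. Insertion sites that held many reads within their tumours, and those found in the largest number of tumours, are shown here as 30 bases of the plus strand of GRCm38 with the target motif in capitals, since these carry the results on highly covered and recurrent insertions.

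PB mesenteric node (replicate 22), intron 1, chr1:138155173-138155202: gtctgatgattctTTAAtaaaagtgctttg
PB mesenteric node (replicate 16), intron 1, chr1:138172640-138172669: acttgagatggttTTAAtggtgatggaaaa
SB mesenteric mass (replicate 11), intron 10, chr1:138109542-138109571: tggtatttattaagTAtaaccattagtttt
SB gut tumour (replicate 2), intron 3, chr1:138120655-138120684: gtcatgcatgtatgTAtgcatgtttacatg
6 PB tumours, intron 2, chr1:138125376-138125405: tgcatttaagttaTTAAaacactcatgttt
3 PB tumours, intron 2, chr1:138125252-138125281: aatgtggttttttTTAAaggctcaggagtg
3 PB tumours, exon 27, chr1:138072260-138072289: cacaaaggatgcaTTAAtgtatttgctggt
3 PB tumours, intron 1 (nearest the start), chr1:138159695-138159724: cctttttcactttTTAAataggccatatat
3 PB tumours, intron 1 (middle), chr1:138142622-138142651: ataaagctgttcaTTAAgaaagaggacctt
3 PB tumours, intron 1 (farthest from the start), chr1:138137119-138137148: tgagctaaactacTTAAgttggataacttc

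Within Ptprc, 6 of the PB tumour lines (3.08%) had no TTAA within 5 bp and were left out, compared to 0.913% of all autosomal PB tumour lines. Repeated lines of a motif within a tumour counted as 1 insertion. This left 188 insertions in PB tumours, 1 in PB tails, 61 in SB tumours and 4 in SB tails.

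Ptprc insertions were found in 28 of 30 PB tumours and in 11 of 11 SB tumours. PB tumours carried between 0 and 24 of them, with a median of 5.5, and SB tumours between 1 and 13, with a median of 4. From the share of chromosome 1 motifs that lie in the gene, 9.70 insertions were expected over the PB tumours and 2.40 over the SB tumours. PB tails had 1 insertion in 12 samples, against 2.87 expected. SB tails had 4 insertions in 4 of 11 samples, against 2.60 expected. The number found was 19.4 times the expected one in PB tumours and 25.4 times in SB tumours, and 0.348 and 1.54 times in the tails. This expectation takes every motif as equally likely to be hit. The authors report that insertions favour genes and accessible chromatin, more so in PB than in SB, and such biases were not modelled here.

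Relative to all insertions of a sample, PB tumours had 1.30 ± 0.968 Ptprc insertions per 1000 (SD, n = 30), from 0 to 3.97 with a median of 1.09. The highest value, of replicate 13, rests on 3 Ptprc insertions among 756. SB tumours had 1.39 ± 0.387 per 1000 (SD, n = 11), from 0.672 to 2.07 with a median of 1.32. PB tails had 0.0243 ± 0.0841 per 1000 (SD, n = 12) and SB tails 0.0673 ± 0.0967 (SD, n = 11). The highest SB tail value was 0.229 per 1000, below the value of every SB tumour. PB tumours and tails overlapped only through the 2 PB tumours without an insertion, both from the spleen (replicates 25 and 26). Having 2346 and 3086 insertions in all, these 2 libraries allow up to 1.28 and 0.972 Ptprc insertions per 1000, which is the limit that a count of 0 sets at 3 counts. In the tails without an insertion this limit ran from 0.408 to 1.48 per 1000 for PB and from 0.463 to 1.18 for SB. The highest SB tail limit is above the lowest SB tumour (0.672). The gene was chosen for its tumour insertions, and the share of all genes that separate tumours from tails in this way is not given here.

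**Figure D1:**
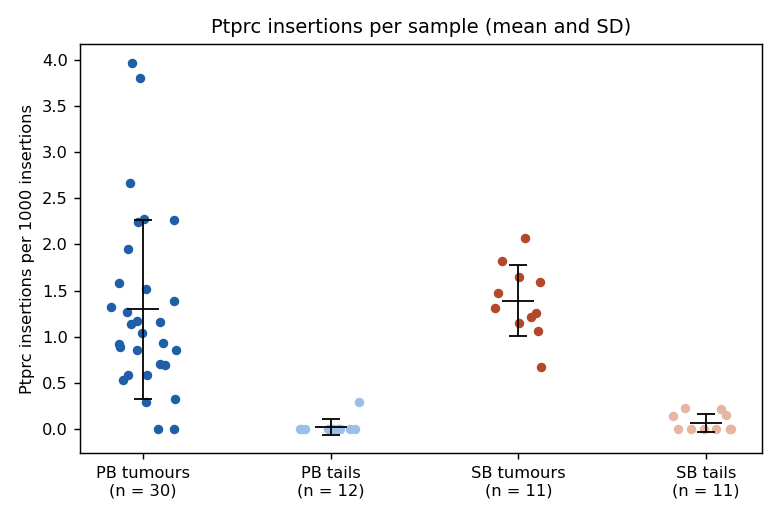
Ptprc insertions per 1000 insertions of a sample (vertical axis) in the 4 groups (horizontal axis), with a point for each sample, and the mean and SD in black. The 11 SB tumours all lie above every tail, and the PB tumours spread from 0 to 3.97.

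Sample names were written in 2 forms, which may mark a batch. The 22 PB tumours with joined names had 1.53 ± 0.973 Ptprc insertions per 1000 (SD) and the 8 with separated names 0.670 ± 0.656. Both PB tumours without an insertion had separated names. All SB tumours had joined names. The part of the name form in the results was tested only where a value within each form is given.

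In the tumours, the density of insertions was lower outside the gene. In the PB tumours there were 22.7 insertions per 100 TTAA motifs within Ptprc, compared to 2.65 in the 250 kb before its start and 1.84 in the 250 kb after its end. Chromosome 1 as a whole had 1.17. The first 10 kb before the start held 7 insertions at 58 motifs, or 12.1 per 100. In the SB tumours there were 0.734 insertions per 100 TA motifs in the gene, 0.0118 before its start and 0.0613 after its end, against 0.0289 on chromosome 1. The tails did not show this. PB tails had 0.120 per 100 TTAA motifs in the gene (1 insertion), 0.308 before its start and 0.759 after its end. SB tails had 0.0481 per 100 TA motifs in the gene (4 insertions), 0.0471 before its start and 0.0446 after its end. No annotated gene overlapped Ptprc. The nearest one before its start was Atp6v1g3, which encodes a subunit of the vacuolar proton pump, 98.4 kb away and with 3 insertions in PB tumours and none in SB tumours. The nearest one after its end was Gm34353, a predicted gene 53.1 kb away with 2 in PB tumours and none in SB tumours.

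Along the gene, PB and SB tumours differed. PB insertions gathered in the first 50% of the gene, whereas the position of SB insertions did not differ from that of the TA motifs beyond the spread of the tumours. In PB tumours, 145 of 188 insertions (77.1%) lay in the first 50% of the gene, which holds 49.0% of its TTAA motifs. In SB tumours, 30 of 61 (49.2%) lay there, compared to 49.0% of the TA motifs.

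To test this across tumours, the mean position of each tumour with at least 3 Ptprc insertions was set against the mean of the motifs, from 0% at the start to 100% at the end. The 25 PB tumours had a mean position of 38.3%, from 24.02% to 52.5% with a median of 36.9%, while the TTAA motifs averaged 49.9%. The difference was -11.6 ± 8.08 percentage points (SD, n = 25), and 22 of 25 tumours lay nearer to the start than the motifs (two-sided permutation of the signs, p = 1.0e-05, which is the lowest value possible with 100000 resamples). The other 3 were replicates 3, 5 and 9. In the 9 SB tumours the mean position was 49.2%, from 31.3% to 68.9% with a median of 47.9%, and the difference from the TA motifs was -0.86 ± 10.8 percentage points (SD, n = 9), which was within the spread of the tumours (exact sign-flip permutation test, p = 0.816). PB and SB tumours differed by -10.7 ± 3.95 percentage points (SE; exact permutation test, two-sided, p = 0.0037). Among joined names alone this was -11.1 ± 4.01 (exact permutation test, p = 0.0041), and the PB difference from the motifs was -12.0 in 21 tumours with joined names (permutation test, p = 2.0e-05) and -9.64 in 4 with separated names, where the exact permutation test cannot go below 0.125.

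A position nearer the start than the motifs was common among genes hit in PB tumours. Over the 1070 genes with at least 20 insertions in PB tumours, the mean position pooled over tumours differed from the motifs by a median of -3.73 percentage points. It was below 0 in 68.0% of them. The pooled value of Ptprc was -13.1, and 10.7% of the genes had a lower one. In SB tumours the median over 85 such genes was -1.27 and the value of Ptprc -0.86.

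**Figure D2:**
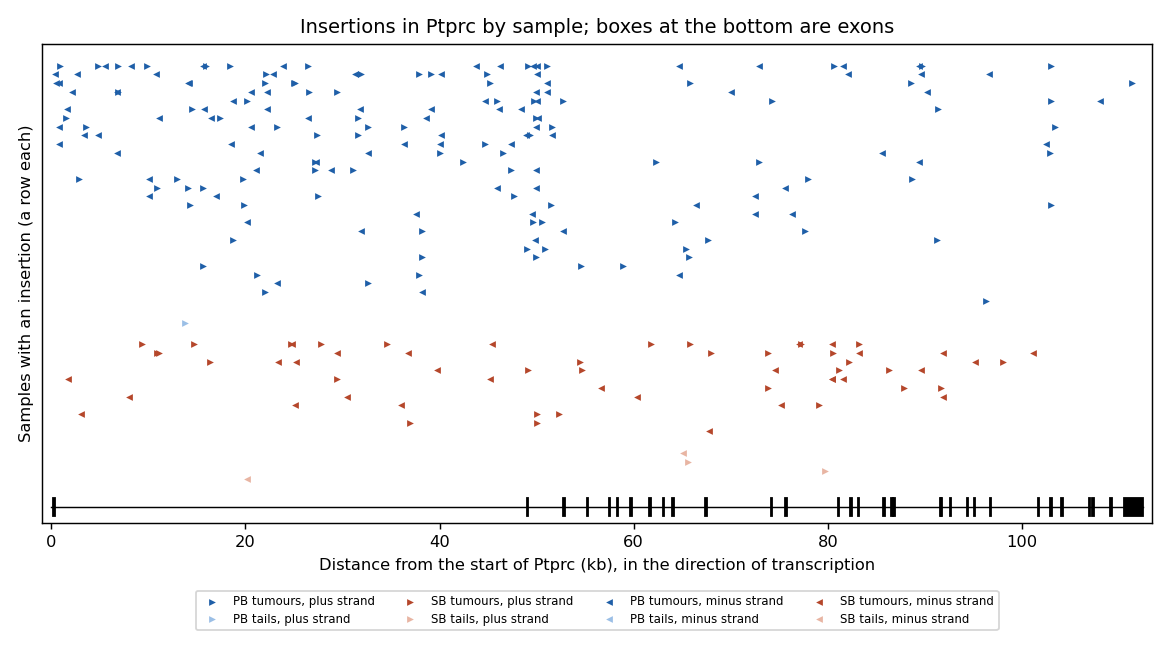
Insertions in Ptprc by distance from its start in kb (horizontal axis), with a row for each sample that had any (vertical axis). Arrowheads to the right are insertions on the plus strand and to the left on the minus strand, coloured by group, and black boxes at the bottom are exons. PB insertions are dense up to intron 2 and sparse after it, and SB insertions reach further along the gene.

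Introns 1 and 2 held most of the PB insertions. Intron 1 had 116 insertions in 26 tumours, against 77.0 if the 188 had been divided by motifs. Intron 2, of 3.72 kb, had 28 in 17 tumours against 12.2. It lies directly before exons 3 to 6, the ones left out of the shortest transcript. These 28 include the insertions at a TTAA hit in 6 tumours and at another hit in 3. Sharing of reads between libraries was not tested. In SB tumours, intron 1 had 24 insertions in 9 tumours against 25.7 by motifs, and intron 2 had 4 in 3 tumours against 2.43. Intron 13 had 7 SB insertions in 4 tumours against 3.24, and 4 PB insertions against 8.38. With the gene divided into 10 equal parts, the PB number was highest in the fifth, with 40 insertions in 22 tumours against 20.8 by motifs, and each of the first 5 parts was above its motif number and each of the last 5 below. The SB number was highest in the eighth, with 13 in 7 tumours against 6.75, and the last had 0 against 5.63. These counts by intron and part were not tested one by one.

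**Figure D3:**
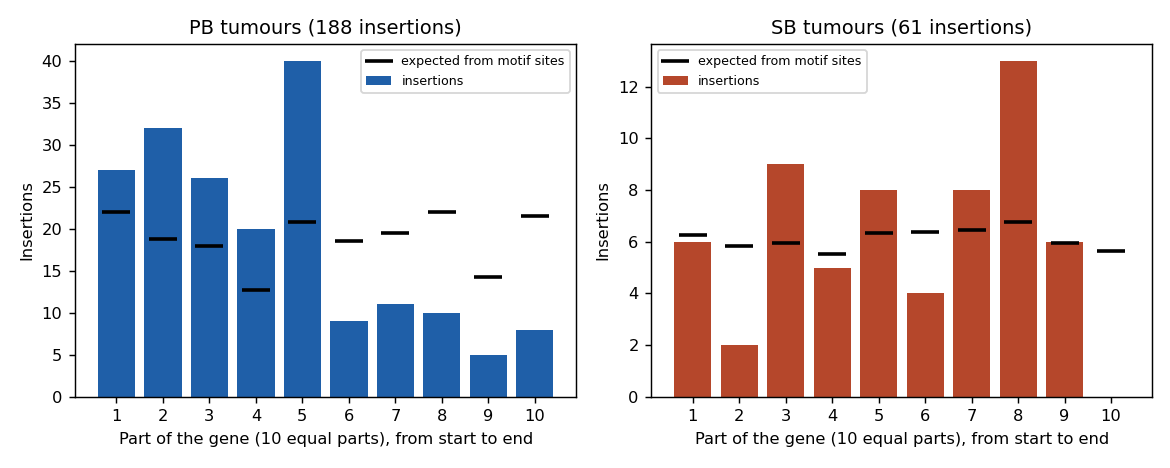
Insertions (vertical axis, number) in each of 10 equal parts of Ptprc from start to end (horizontal axis), in PB tumours (left) and SB tumours (right), with bars for the insertions and black dashes for the number expected if they followed the TTAA or TA motifs. PB bars stand above the dashes in the first 5 parts and below in the last 5, and the tallest SB bar is the eighth, with 13.

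Few insertions lay in exons. PB tumours had 5 exonic insertions (2.66%) against 4.08 expected from the motifs, 4 of them in coding sequence. Of these, 3 were at the same TTAA of exon 27 in 3 tumours, 1 was elsewhere in exon 27, and 1 was in exon 32. SB tumours had 0 of 61 in exons against 2.16 expected, which allows a share of up to 4.92%.

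Neither strand was favoured beyond the spread of the tumours. Ptprc is transcribed from the minus strand, and 93 PB tumour insertions were on the minus strand and 95 on the plus strand, a minus share of 49.5% (exact Clopper-Pearson 95% interval 42.1% to 56.8%, which covers counting error only). In SB tumours 30 were on the minus strand and 31 on the plus strand, or 49.2% (36.1% to 62.3%). Per tumour with at least 3 insertions, the minus share was 44.3% on average in PB, which differed from 50% by -5.74 ± 26.3 percentage points (SD, n = 25; permutation test, p = 0.286), and 53.7% in SB, a difference of 3.68 ± 26.2 (SD, n = 9; exact permutation test, p = 0.695). Within PB tumours, the first 50% of the gene had 74 minus and 71 plus insertions, and the rest 19 and 24. SB tumours had 14 and 16 in the first 50%, and 16 and 15 in the rest.

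The reads of an insertion reflect how many cells carry it and how well its junction was amplified, and these cannot be told apart. Ptprc insertions had a median of 7 reads in PB tumours. In SB tumours the median was 14 and the range 2 to 214. In PB tumours, 39 had at most 3 reads and 13 had at least 100. In SB tumours these numbers were 8 and 2. The insertions of Ptprc together held between 0% and 1.74% of the reads of a PB tumour, with a median of 0.0525%, and between 0.0193% and 0.353% in SB tumours, with a median of 0.0683%.

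Since libraries differed in depth, each insertion was given its percentile by reads among all insertions of its own tumour. The median percentile of Ptprc insertions was 58.3 on average over PB tumours, from 16.6 to 97.4. It was above 50 in 18 of 25 tumours, by 8.29 ± 18.7 (SD, n = 25; two-sided sign-flip permutation test, p = 0.036). This call was lost in several alternatives: with at least 5 insertions per tumour (7.07, permutation p = 0.053), without positions found in more than 1 sample (9.16, permutation p = 0.066), and in joined names alone (5.63, permutation p = 0.163). In SB tumours it was 52.3 on average, from 18.4 to 96.3, and 5 of 9 were above 50 (difference 2.32 ± 23.7, SD, n = 9; exact permutation test, p = 0.801). Pooled over tumours, the median percentile of Ptprc was 63.8 in PB, compared to a median of 51.6 over the 1070 genes with at least 20 insertions, and 91.8% of them were lower. In SB it was 59.2, compared to 50.2 over 85 genes, and 81.2% of them were lower.

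**Figure D4:**
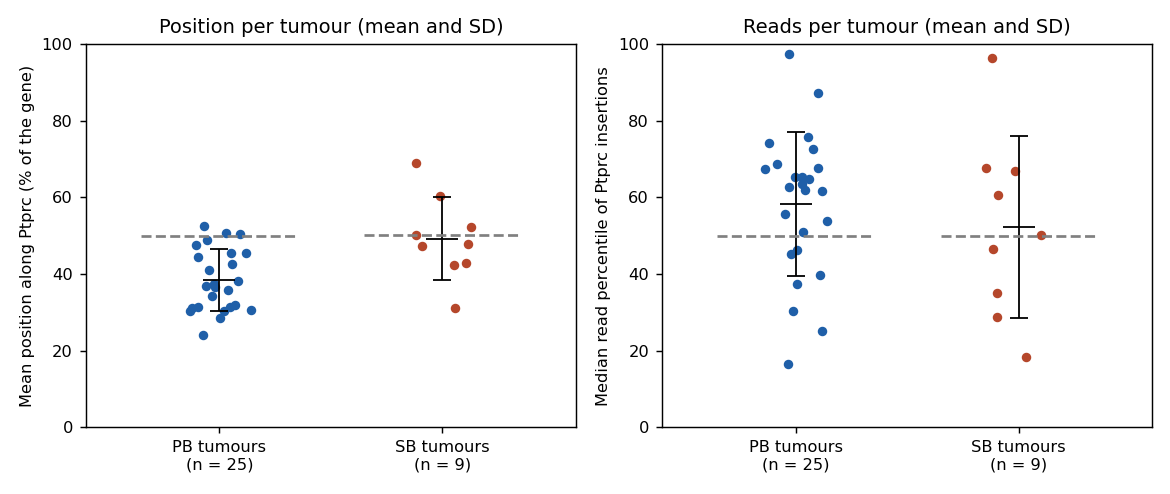
Mean position along Ptprc in % of the gene (left) and median read percentile of the Ptprc insertions (right) for each tumour with at least 3 of them, 25 PB and 9 SB tumours, with mean and SD in black. Grey dashes are the mean of the motifs (left) and 50 (right), and 22 of 25 PB tumours lie below the dashes in position.

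A few tumours carried Ptprc insertions among their most covered ones. The best ranked Ptprc insertion of a PB tumour had rank 242 in the median tumour, and the best ranked of an SB tumour rank 492. A Ptprc insertion was among the 100 most covered of the tumour in 8 of 30 PB tumours and 3 of 11 SB tumours, and in no tail, where the best rank was 1268. Of the PB tumours, 3 had 2 such insertions (replicates 6, 16 and 29), as had 2 of the SB tumours (replicates 2 and 10). The tails held only 1 (PB) and 4 (SB) Ptprc insertions in all, so few could have ranked there. The numbers expected from the count of Ptprc insertions, and those of other genes, are not given here.

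In PB mesenteric node replicate 22, the first site printed above held 2980 reads (1.74%) and rank 12. The same TTAA was also hit in PB spleen replicate 3, on the plus strand with 7 reads. In replicate 16, the second site held 413 reads and rank 27. Among SB tumours, the printed site of mesenteric mass replicate 11 held 214 reads and rank 29, and that of gut tumour replicate 2 held 109 reads and rank 36. In replicates 22 and 16 these PB sites were on the minus strand and in intron 1, and the 2 SB sites were on the plus strand and in introns 10 and 3. Over all Ptprc insertions among the 100 most covered, both strands and further introns occurred in each system. In PB, replicate 5 had one on the plus strand in intron 19, and replicate 29 on the plus strand in intron 2. In SB, replicate 10 had insertions on the minus strand in introns 7 and 1.

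Some TTAA motifs of Ptprc were hit in more than 1 PB tumour. The 189 PB insertions of tumours and tails lay at 148 of the 830 motifs (17.8%), and 32 motifs were hit in more than 1 sample, 26 of them in 2, 5 in 3 and 1 in 6. The strand was the same in all samples at 12 of the 32. The numbers that the density of insertions alone would give, and those of other genes, are not given here, so this is a description. The motif hit in 6 tumours lies in intron 2, with 111 reads in replicate 1, 18 in replicate 6, 2 in replicate 8, 19 in replicate 10, 7 in replicate 11 and 6 in replicate 14. Replicates 1 and 14 had it on the plus strand and the other 4 on the minus strand. The other printed motif of intron 2 had 26, 3 and 25 reads in replicates 3, 15 and 16, always on the minus strand. The motif of exon 27 had 102, 10 and 15 reads in replicates 3, 15 and 24, always on the plus strand. The other 3 motifs hit in 3 tumours lie in intron 1 and had both strands. The one nearest the start had 2, 21 and 92 reads in replicates 10, 15 and 28, with replicate 15 on the minus strand. The middle one had 3, 6 and 30 reads in replicates 6, 18 and 30, with replicate 18 on the minus strand. The farthest had 33, 3 and 4 reads in replicates 14, 19 and 21, with replicate 19 on the minus strand. In SB, 65 insertions lay at 62 motifs, 3 of which were hit in 2 samples. Sharing of reads between libraries was not tested. Without positions found in more than 1 sample, PB tumours had 0.789 ± 0.690 Ptprc insertions per 1000 (SD, n = 30), and the position differed from the motifs by -10.6 ± 12.2 percentage points (SD, n = 18; permutation test, p = 0.0025).

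By tumour site, the mean number of Ptprc insertions per 1000 was lowest in the spleen in both systems, but no pair of sites differed beyond the spread of the tumours. PB mesenteric masses had 1.55 ± 1.06 per 1000 (SD, n = 9), from 0.295 to 3.97 with a median of 1.32. The highest was replicate 13, with 3 Ptprc insertions among 756. PB mesenteric nodes had 1.55 ± 1.20 (SD, n = 6), from 0.591 to 3.803 with a median of 1.05. Peripheral nodes or masses had 1.32 ± 0.856 (SD, n = 9), from 0.326 to 2.66 with a median of 0.893. PB spleens had 0.627 ± 0.536 (SD, n = 6), from 0 to 1.17 with a median of 0.727. The spleens with 0 were replicates 25 and 26, both with separated names, and sites were not compared within a name form. The values of the 4 sites overlapped.

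SB gut and mesenteric tumours had 1.55 ± 0.375 per 1000 (SD, n = 6), from 1.07 to 2.07, and the 3 SB spleens 1.03 ± 0.315 (SD), with 0.672, 1.16 and 1.26. The SB thymus tumour had 1.597 and the SB salivary gland node 1.32. Over the 7 pairs of sites compared, the smallest adjusted p was 0.176 (exact permutation tests, Benjamini-Hochberg). With only insertions of at least 10 reads, PB mesenteric nodes exceeded PB spleens by 1.76 per 1000 (exact permutation test, adjusted p = 0.015).

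**Figure D5:**
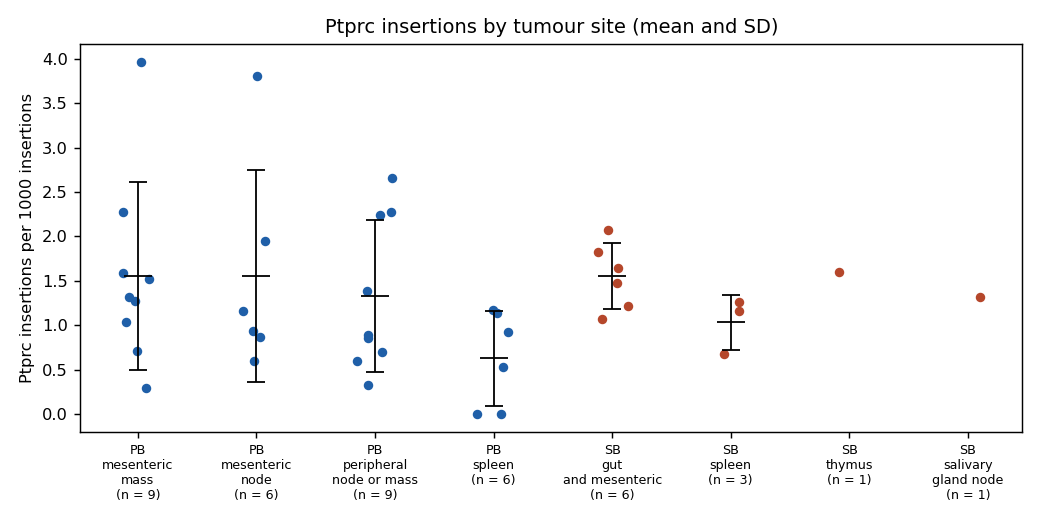
Ptprc insertions per 1000 insertions of a tumour (vertical axis) by tumour site (horizontal axis), PB in blue and SB in red, with a point for each tumour, and the mean and SD in black where a site has more than 2 tumours. PB spleens reach at most 1.17, within the range of the other sites.

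Ptprc was set against 3 other genes with many insertions in the same PB tumours, which encode transcription factors. These were Mef2c, a MADS-box factor of muscle and lymphoid cells, Ikzf1 (Ikaros), a zinc finger factor of lymphocyte development, and Ebf1, a factor that specifies B cells. In tumours with at least 3 insertions in both genes, the median read percentile of Ptprc was 59.5 and that of Mef2c 49.0, a difference of 10.5 ± 24.6 (SD, n = 18), higher in 14 of 18 tumours (permutation test, adjusted p = 0.267 over 6 comparisons). Against Ikzf1 the difference was -0.71 ± 21.999 (SD, n = 13) and against Ebf1 2.50 ± 21.1 (SD, n = 17), both with an adjusted permutation p of 0.981. The share of insertions on the strand of the gene was 45.8% for Ptprc and 58.4% for Ebf1, a difference of -12.6 ± 26.7 percentage points (SD, n = 17; permutation test, adjusted p = 0.267). For Mef2c and Ikzf1 it differed from Ptprc by less than 2 points (adjusted permutation p = 0.981 each). None of the 6 comparisons passed.

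Genes hit together with Ptprc were counted among the 100 most covered insertions of a tumour. Of the 8 PB tumours with Ptprc there, 7 also had Fas, which encodes a death receptor, and so had 15 of the 22 other PB tumours. Gna13, a G protein subunit that confines B cells to the germinal centre, was hit in 4 of 8 and in 11 of 22. Ebf1 was hit in 4 of 8 and in 10 of 22, and Rel, a subunit of NF-kB, in 3 of 8 and in 8 of 22. Mef2c was hit in 1 of 8 and 3 of 22, and Ikzf1 in 0 of 8 and 2 of 22. Of the 3 SB tumours, 2 had Ebf1, as had 2 of the 8 others. En2, a homeobox gene, was hit in 2 of 3 and 8 of 8, and Gulp1, which encodes an adaptor of engulfment, in 2 of 3 and 1 of 8. These genes were chosen for being hit with Ptprc, so the counts are a description.

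The genes around CD45 in signalling were examined with a list of 48 genes by role, of which 45 could be measured. The other 3, Blk, Lgals3 and Cd99l2, lie on chromosomes that were left out. Insertions per gene were compared between tumours and tails with edgeR across all genes with at least 10 insertions, where in PB 68 of 3370 genes (2.02%) had more insertions in tumours and 74 (2.2%) fewer, at an adjusted p under 0.05. Of the 20 list genes tested in PB, 1 was higher in tumours and 0 lower. Their median log2 fold change was 0.83, compared to 0.20 over all genes tested. A gene can reach 10 insertions through the tumours alone, and without this minimum the median was 0.58 over 37 list genes, compared to 0.32 over 14400 genes. At an unadjusted p under 0.05, 8 of the 20 list genes were higher and 0 lower, beside 12.2% and 7.24% of all genes tested. Without the minimum, 7 of 37 were higher and 1 lower, beside 3.65% and 4.19%. The list was chosen with earlier results of these data known, so its medians and shares beside all genes are a description. With TMM in place of the total, the median of all genes was 0.41 and that of the list 0.998, and 74.0% of all calls were higher in tumours in place of 47.9%. For Ptprc itself, which was chosen for this contrast, the log2 fold change was 4.74 in PB and 3.73 in SB.

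Among the Src-family kinases, the targets of CD45, Lyn was the list gene that passed. It is the main kinase of this family in B cells, and had 47 insertions in 21 of 30 PB tumours and 3 in 2 of 12 tails. Per 1000 insertions these were 0.309 ± 0.387 (SD, n = 30) and 0.0349 ± 0.0857 (SD, n = 12), with a log2 fold change of 1.92 (edgeR, adjusted p = 0.046). It also passed with TMM (edgeR, adjusted p = 0.023) and with DESeq2 (adjusted p = 0.022). With the name form as a covariate, its log2 fold change was 1.77 (edgeR, adjusted p = 0.104), with at least 10 reads 1.39 (edgeR, adjusted p = 0.137) and without the minimum of insertions 1.92 (edgeR, adjusted p = 0.221). Fyn, another kinase of the family, had the most insertions of this role, 52 in 25 tumours and 7 in 6 tails (log2 fold change 1.07, edgeR adjusted p = 0.234). Lck, the kinase of T cells, had none in PB or SB samples.

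Pag1, the membrane anchor of Csk, had 49 insertions in 20 PB tumours and 4 in 3 tails (log2 fold change 1.61, edgeR adjusted p = 0.083), and passed with TMM (edgeR, adjusted p = 0.043) and with DESeq2 (adjusted p = 0.036). Among antigen receptor signalling genes, Inpp5d, which encodes the lipid phosphatase SHIP1, had the most, with 40 in 20 tumours and 3 in 3 tails (log2 fold change 1.65, edgeR adjusted p = 0.098), and passed with at least 10 reads (edgeR, adjusted p = 0.045). Jak1, a Janus kinase, had 30 in 18 tumours and 2 in 2 tails (log2 fold change 1.70, edgeR adjusted p = 0.112). None of these 3 passed with the total of insertions and all reads kept.

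Among other phosphatases, Ptprj, the receptor phosphatase CD148, had the most insertions, 27 in 18 PB tumours and 7 in 5 tails (log2 fold change 0.21, edgeR adjusted p = 0.877). Of the splicing regulators, Srsf3 had 18 in 11 tumours and 7 in 4 tails (log2 fold change -0.27, edgeR adjusted p = 0.850). The surface partners had too few insertions for a test, with 2 in Cd8a as the most.

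In SB, 8 of 1130 genes (0.708%) had more insertions in tumours and 2 (0.177%) fewer. Of the list, 4 genes had enough insertions, Fyn, Jak2, Ptpra and Ptpn2, and 0 passed in either direction (edgeR). At an unadjusted p under 0.05, where 5.84% of all genes were higher and 3.27% lower, 1 of the 4 was higher, Ptpn2, a phosphatase of Janus kinases (log2 fold change 1.81, edgeR adjusted p = 0.363), and DESeq2 also called 0. Ptpn2 had 9 insertions in 7 of 11 SB tumours and 2 in 2 of 11 tails. Lyn had 3 insertions in SB tumours and 4 in SB tails, and Pag1 had 2 and 5. Inpp5d had 8 and 1, and Jak1 had 3 and 1. Each of these had too few in SB for that test. Without the minimum of insertions, 28 list genes were tested in SB and 0 passed in either direction (edgeR). At an unadjusted p under 0.05, 2 of them were higher and 0 lower, beside 3.08% and 1.35% of all genes.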

How the data were processed

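Transposon insertions were analysed in 64 samples with different mouse codes. The authors deposited raw read counts, without normalization, for each insertion position and strand on mm10, obtained by splinkerette PCR and MiSeq sequencing (75 bp, both ends). The aligner, the insertion caller and the read filters are not given in the sources used here, and no line had under 2 reads. The table also has 1 column of coverage scaled within each sample, which was left unused.

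Each position was assigned to the closest target motif (TTAA for PB, TA for SB) at most 5 bp away and counted once per sample. The sex chromosomes and the donor chromosome (14) were left out. Expected numbers followed from the motifs of chromosome 1. Sequences and genes are from RefSeq on GRCm38. Kept insertions held between 55502 and 5721822 reads per sample and numbered between 756 and 10798, so a sample has few insertions per gene. Reads were not tagged by molecule, so they are not independent, and intervals cover counting error only.

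Tumours with at least 3 Ptprc insertions entered the two-sided permutation tests, with sign flips against a fixed value (exact up to 16 samples, otherwise 100000 resamples). Genes were compared between tumours and tails with edgeR quasi-likelihood tests and Benjamini-Hochberg adjustment, scaled to the kept insertions of each sample. The gene and the lists were chosen with earlier results of these data known. Named were Ptprc, the 3 comparison genes, the 5 (PB) and 3 (SB) genes most often hit with Ptprc among the 100 most covered insertions, list genes that passed and the one with most insertions in each role, and the neighbours of Ptprc. Of the genes hit with Ptprc, 1 that the rule names is not reported here, and neither is 1 insertion site of Ptprc. Other list genes were named after their values were seen. The position against the motifs within each name form was an alternative added after seeing the data.

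The edgeR comparison was tested on simulated data in which 200 genes differed 4-fold. It recovered 49 of them in PB, with 1 false call among 3370 genes, and 72 in SB, with 4 among 1130. Of those with at least 30 insertions it found 30 of 76 and 34 of 44. The simulated counts had the same dispersion for every gene, and as many of the 200 genes were raised as lowered. No general shift between tumours and tails was simulated, so the recovered and false calls hold for these settings only. Python 3.11.15 (numpy 2.4.6, pandas 2.3.3, scipy 1.17.1, matplotlib 3.10.9) and R 4.3.3 (edgeR 4.0.16, DESeq2 1.42.0) were used.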

Additional observations from a re-analysis of the deposited data

Results flagged for a closer look

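The position of Ptprc insertions relative to the motifs of the gene differed between PB and SB tumours, by -10.7 percentage points (25 PB and 9 SB tumours, exact permutation test, p = 0.0037). The difference itself was tested. With the median position of a tumour in place of the mean it was -17.7 (exact permutation test, p = 2.0e-04). No tumour stood apart within its site in the number of Ptprc insertions per 1000, among the 5 groups of 6 to 9 tumours examined.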

How the results depend on the processing

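Of 110 alternative values, 83 kept their direction and their side of the threshold, or moved by less than the spread. The position of PB insertions passed in 6 of 7 alternatives, from -15.6 to -9.64 percentage points, and missed the threshold only in the 4 tumours with separated names (-9.64, exact permutation p = 0.125), where no smaller p can be had. Per 1000 insertions of chromosome 1, the number of Ptprc insertions was 14.8 in PB tumours, 0.296 in PB tails, 17.6 in SB tumours and 0.860 in SB tails, a change of denominator. The read percentile of PB tumours missed the threshold with at least 5 insertions (7.07), without shared positions (9.16), within joined (5.63) and separated names (22.3), and without the highest ranked insertion of each tumour (0.902), which lowers the value by construction. With separated names all 4 tumours lay above 50, and the exact permutation test on 4 tumours cannot go below 0.125. The read percentile passed in the other 5 alternatives. Values not past the threshold changed sign as follows. The minus strand share against 50% became 1.36 (PB) and -0.0366 (SB) with at least 5 insertions and 1.46 (PB) without shared positions. The SB position became 0.453 with at least 5 insertions and 2.07 with the median, and the SB read percentile -0.355 without the highest ranked insertion. Between PB sites, the number of insertions per tumour gave -0.389 (mesenteric mass minus node), -0.889 (mass minus peripheral) and -0.500 (mesenteric node minus peripheral), and a minimum of 10 reads -1.32 and -1.14 for the first and second of these. PB mesenteric nodes minus spleens reached 1.76 with that minimum and passed. Without each SB spleen in turn, its difference from gut and mesenteric tumours ran from -0.638 to -0.343. Ptprc minus Ikzf1 in read percentile became 1.16 with at least 1 insertion of each gene. The list genes higher in PB tumours numbered 1 in the main comparison, 2 with TMM, 2 with DESeq2 (which gave no adjusted p for 12 of 20), 0 without a minimum of insertions and 0 with the name form as covariate. All PB genes higher in tumours were 131 with TMM, 55 with DESeq2, 22 without the minimum, 66 with at least 10 reads and 43 with the name form, and those lower 46, 17, 47, 46 and 57. For SB these were 6, 1, 6, 8 and 8 higher, and 2, 1, 1, 4 and 2 lower. The cause of these changes was not tested. No paired analysis was possible because the labels give no replicate numbers and tumours and tails have different mouse codes.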
